A study of Mus musculus with 9 samples.

Results

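Collagens and laminins, the structural chains of connective tissue and basement membrane, were followed in the small intestine of mice with a conditional deletion of Gata4, which encodes a DNA-binding protein of proximal gut epithelium. The set comprises every probe set that the array annotation assigns to exactly 1 gene whose symbol is that of a collagen chain (Col, a number, a, a number) or of a laminin alpha, beta or gamma chain. This rule, which uses no measured value, gave 101 of 45037 probe sets and 52 of 18193 genes, 42 of them collagens and 10 laminins. By structure, 10 genes encode laminins, 6 basement membrane collagens, 11 fibrillar collagens and 25 other collagens. Of these, 63 probe sets of 40 genes were bright enough to be tested, namely 9 laminins, 4 basement membrane collagens, 9 fibrillar collagens and 18 other collagens. The 12 genes with no tested probe set were Lama1, Col4a3, Col4a4, Col2a1, Col24a1, Col6a5, Col9a2, Col9a3, Col10a1, Col17a1, Col19a1 and Col26a1, none of which had a group mean above 4.86 on the log2 scale used here. Col6a6 and Col28a1 had no named probe set here.

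RNA came from adult males of 6 to 8 weeks, with 3 mice and 3 arrays in each of 3 groups. Mutant jejunum was Gata4loxP/-VilCre, in which Gata4 had a loxP-flanked and a null copy. Control ileum and control jejunum were both Gata4loxP/+VilCre, with a loxP-flanked and a wild-type copy, and came from different mice. Every mouse thus carried villin-Cre, a transgene that expresses Cre recombinase in intestinal epithelium and not in the connective tissue beneath it, and the loxP-flanked copy was exposed to Cre in controls too. Jejunum was taken 10 cm from the pylorus and ileum 1 cm from the cecum, and the sources used here do not say which layers of the gut wall were included.

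The basement membrane is a thin sheet under epithelium and around vessels and muscle cells, built of laminin trimers, each an alpha, a beta and a gamma chain, and of a network of type IV collagen. Beneath it lie fibrils of type I, III and V collagen with collagens that bind to their surface and the fine filaments of type VI collagen. In the gut the epithelium makes some laminin chains, while mesenchymal cells make most collagen, so tissue RNA holds both sources.

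Levels are quantile-normalized log2(intensity + 16), where a probe set with no signal stands at about 4, and differences are on the same scale. Group values are mean ± SD (n = 3). A gene is represented by its brightest tested probe set unless another is named, and probe sets are not compared with one another in level. "Called" means an adjusted p under 0.05 in limma over all 29307 probe sets tested in that comparison. Trimmed mean intensity was 169 ± 18.2 on mutant jejunum arrays, 112 ± 13.2 on control ileum arrays and 163 ± 12.0 on control jejunum arrays, so brightness and segment cannot be told apart. The spike-in controls, as log2(intensity + 16) before normalization, averaged 9.70, 9.94 and 10.03 on the ileum arrays and 10.51 to 10.82 on the jejunal arrays. Why the ileum arrays were dimmer was not tested. Mutant jejunum 3 stood apart from the other arrays on the second principal component and took the lowest array weight, 0.384. The 3'/5' signal ratio of Gapdh is a measure of RNA integrity. It lay between 0.694 and 0.711 on ileum arrays, 0.728 and 0.765 on mutant jejunum arrays and 0.750 and 0.814 on control jejunum arrays. The ileum arrays thus had the lowest Gapdh ratios, which cannot be told apart from segment. The same ratio of actin lay between 1.19 and 1.40 on all 9 arrays. Gata4 itself gave 9.50 ± 0.11 in mutant jejunum, 5.38 ± 0.23 in control ileum and 9.53 ± 0.04 in control jejunum. The sources used here do not place its probes relative to the deleted part, so these levels check nothing about the deletion.

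Promoter windows of RefSeq (GRCm38.p6, 250 bases before to 50 after an annotated start) were found for 38 of the 52 genes. Those of Lama5 and Col6a4 are shown because these genes differed most between the groups, with the annotated start base in capitals. Those of Col4a1 and Col4a2 are shown because these neighbours lie head to head on opposite strands, with starts 21 bases apart, and the 78 bases that both windows hold are in capitals. Lama5 lies at chr2:180225810-180226109 on the minus strand, Col6a4 at chr9:106096642-106096941 on the minus strand, Col4a1 at chr8:11312777-11313076 on the minus strand and Col4a2 at chr8:11312555-11312854 on the plus strand.
Lama5: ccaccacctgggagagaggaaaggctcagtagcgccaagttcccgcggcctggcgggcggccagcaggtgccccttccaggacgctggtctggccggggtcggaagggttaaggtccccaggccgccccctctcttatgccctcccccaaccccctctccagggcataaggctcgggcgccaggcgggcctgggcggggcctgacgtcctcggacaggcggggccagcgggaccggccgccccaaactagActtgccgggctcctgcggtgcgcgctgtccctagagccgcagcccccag
Col6a4: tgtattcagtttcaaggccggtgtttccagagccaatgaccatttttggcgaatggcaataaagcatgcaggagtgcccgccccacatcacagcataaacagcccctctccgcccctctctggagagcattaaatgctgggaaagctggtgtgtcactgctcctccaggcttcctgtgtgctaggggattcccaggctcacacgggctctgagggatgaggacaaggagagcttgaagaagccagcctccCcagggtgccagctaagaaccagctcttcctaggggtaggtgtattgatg
Col4a1: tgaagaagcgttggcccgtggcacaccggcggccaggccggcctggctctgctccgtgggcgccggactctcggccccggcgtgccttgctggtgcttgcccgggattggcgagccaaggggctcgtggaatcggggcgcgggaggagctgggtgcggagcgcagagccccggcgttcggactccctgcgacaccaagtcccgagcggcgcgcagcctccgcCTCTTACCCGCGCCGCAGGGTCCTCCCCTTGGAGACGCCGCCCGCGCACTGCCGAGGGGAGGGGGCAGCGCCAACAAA
Col4a2: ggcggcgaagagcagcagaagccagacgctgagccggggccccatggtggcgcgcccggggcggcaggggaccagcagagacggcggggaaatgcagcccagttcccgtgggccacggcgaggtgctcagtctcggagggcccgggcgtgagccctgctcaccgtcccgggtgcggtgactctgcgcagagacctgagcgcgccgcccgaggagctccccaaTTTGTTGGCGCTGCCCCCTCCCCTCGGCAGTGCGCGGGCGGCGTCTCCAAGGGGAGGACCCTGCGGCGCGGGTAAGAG
The capitals of Col4a2 are those of Col4a1 read on the other strand. GC content was 72.7% for Lama5, 55% for Col6a4, 74% for Col4a1 and 73.7% for Col4a2. The core that GATA factors bind was searched on both strands in 4 forms, AGATAA first, then AGATAG, next TGATAA, finally TGATAG. None of these 4 windows holds any of them, which says only that the letters are not in these windows. Of the 42 windows of member genes, 5 hold at least 1 (11.9%), those of Col3a1, Col11a2, Col17a1, Col27a1 and Col4a6, against 29.8% of the 32851 windows in the table. TATAAA, the TATA box letters, stood in 11.9% of member windows and in 13.6% of all windows. The GC content of member windows was not compared with that of all windows. These shares therefore cannot tell a difference in base composition from one in binding sites.

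The comparison of mutant with control jejunum sets Gata4loxP/-VilCre against Gata4loxP/+VilCre. Outside the epithelium, too, the mutants carried a null copy of Gata4 where the controls had a wild-type one. Loss of Gata4 from the epithelium and this difference in other cells cannot be told apart here. Lama5, the alpha chain of the main laminins of mature epithelial basement membrane, fell, and no other gene was called by its brightest probe set. Of 63 probe sets, 0 were called higher (1.74% of all probe sets tested were) and 2 lower (1.82% of all), which is 3.17% of the members in either direction against a background of 3.56%. By gene, 0 of 40 rose and 1 fell, the median difference was -0.01 (0.00 over all probe sets tested), and 39 of 40 genes differed by less than 2-fold. At an unadjusted p under 0.05, 3 of the 40 genes would pass. Arrays of the groups did not overlap for 4 of 40 genes (10%), 1 higher and 3 lower, against 22.5% of all probe sets, 11.4% higher and 11% lower.

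The comparison of control ileum with control jejunum shows the regional pattern in mice that both keep a wild-type copy. Here 1 member probe set was called higher (8.36% of all were) and 8 lower (7.86% of all), or 14.3% in either direction against a background of 16.2%. By gene, Lamb3 rose and 6 genes fell, namely Lama5, Col4a5, Col6a3, Col6a4, Col12a1 and Col14a1, and the called probe set of Col18a1 was its dimmer one. The median difference over the 40 genes was -0.17, against 0.01 over all probe sets tested, and 27 of the 40 differences were negative. Arrays did not overlap for 12 genes (30%), 3 higher and 9 lower, against 37.4% of all probe sets, 19.7% higher and 17.7% lower. The 2 comparisons share their control jejunum arrays, so a value of those arrays enters both.

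Between mutant jejunum and control ileum, 4 member probe sets were called higher in the mutant (1.39% of all were) and 0 lower (1.27% of all), or 6.35% against 2.65% of all probe sets. They belong to Col6a4, Col14a1, Col12a1 and the dimmer probe set of Col18a1. The median difference over the 40 genes was 0.20, against -0.01 over all probe sets tested. Arrays did not overlap for 8 genes (20%), 7 higher and 1 lower, against 20.6% of all probe sets, 9.9% higher and 10.7% lower.

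**Figure D1:**
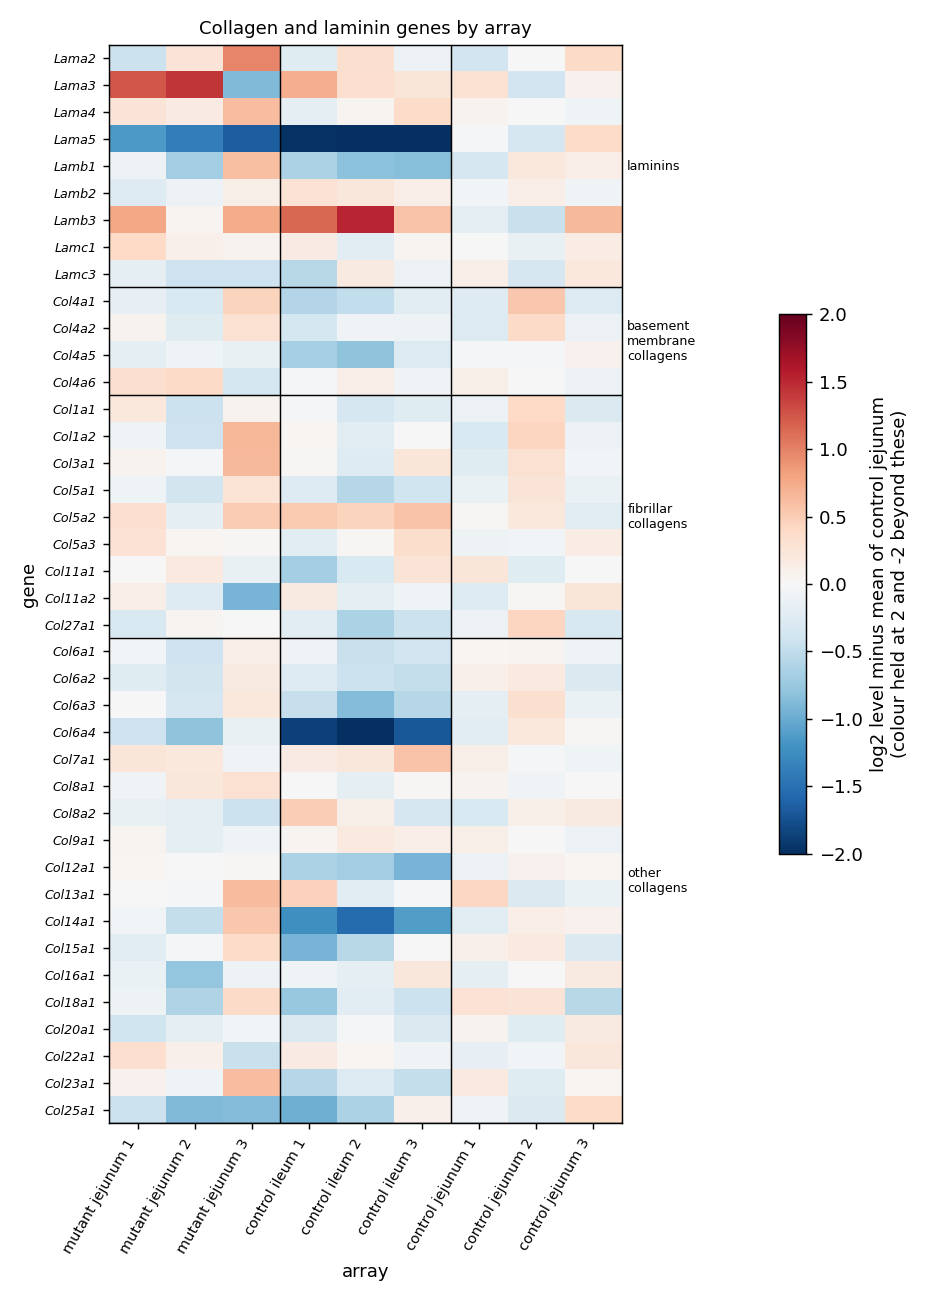
Level of each of the 40 tested genes on each of the 9 arrays (columns: mutant jejunum, control ileum, control jejunum, 3 arrays each), as the log2 level minus the control jejunum mean, with genes grouped by class. Lama5 is low on all mutant and ileum arrays, while Col6a4, Col14a1 and Col12a1 are low on the ileum arrays. In the mutant Col14a1 and Col12a1 differ by 0.00 and 0.02 from control jejunum and Col6a4 by -0.46, none called.

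Among the laminins, the alpha chain Lama5 gave 7.50, 7.28 and 7.00 on mutant jejunum arrays 1, 2 and 3, 6.68, 6.60 and 6.37 on the control ileum arrays, and 8.62, 8.33 and 9.02 on the control jejunum arrays. The 3 groups did not overlap, with the mutant between ileum and control jejunum. Lama5 fell to 7.26 ± 0.25 in mutant jejunum, against 8.66 ± 0.35 in control jejunum, a log2 difference of -1.39 ± 0.19 (SE; limma adjusted p = 0.00284) or 2.63-fold. In control ileum it averaged 6.55 ± 0.16, a log2 difference of -2.11 from control jejunum (limma adjusted p = 5.28e-05) or 4.31-fold. Both calls held in all 20 alternative analyses, which were 11 other settings and 9 fits that each left out 1 array. Mutant jejunum stood 0.71 above control ileum, which was not called (limma adjusted p = 0.0857) and was called with no scaling between arrays (limma adjusted p = 0.00578) and with array weights (limma adjusted p = 0.035). As deposited, the same probe set gave 198, 164 and 117 intensity units on the mutant arrays, 57.7, 69.3 and 56.4 on the ileum arrays and 440, 314 and 596 on the control jejunum arrays. A second, dimmer Lama5 probe set ran the same way with smaller differences that were not called, -0.25 in mutant jejunum (limma adjusted p = 0.557) and -0.45 in control ileum (limma adjusted p = 0.121). The third Lama5 probe set was too dim to test. In tissue RNA, fewer cells of a type and less RNA per cell cannot be told apart, here and in the results that follow.

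Lama3 and Lamb3 encode the alpha and beta chains of the laminin that anchors epithelial cells through hemidesmosomes. Lama3 gave 8.89, 9.08 and 6.77 on mutant jejunum arrays, 8.37, 7.99 and 7.90 on control ileum arrays, and 7.95, 7.26 and 7.73 on control jejunum arrays. On mutant jejunum 1 and 2 it lay above all 6 control arrays, and on mutant jejunum 3 below all of them. The difference from control jejunum was 0.60 (limma adjusted p = 0.585), and without mutant jejunum 3 it was 1.34 (limma adjusted p = 0.00970), which is past the threshold. Against control ileum it was 0.16 (limma adjusted p = 0.908), and 0.90 without that array (limma adjusted p = 0.0495).

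Lamb3 gave 8.98, 8.26 and 8.95 on mutant jejunum arrays, 9.36, 9.73 and 8.79 on control ileum arrays, and 8.01, 7.77 and 8.85 on control jejunum arrays. The ileum and control jejunum arrays overlapped at 1 point, since control jejunum 3 lay above control ileum 3. Lamb3 rose in control ileum to 9.29 ± 0.48, against 8.21 ± 0.57 in control jejunum (log2 difference 1.08, limma adjusted p = 0.0370). Mutant jejunum, at 8.73 ± 0.41, differed from control jejunum by 0.52 (limma adjusted p = 0.437), with a 95% interval of -0.16 to 1.21. The ileal call was kept in 12 of 20 alternatives, and was lost without control jejunum 1 (limma adjusted p = 0.102) or 2 (0.136), without control ileum 1 (0.0896) or 2 (0.129), with no scaling (0.183), with arrays centred on their medians (0.0862), and with no filter (0.0572).

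The chains that pair with Lama5, Lamb1 or Lamb2 as the beta and Lamc1 as the gamma chain, were not called in any comparison. Lamb1 stood at 8.25 ± 0.65 in mutant jejunum, 7.55 ± 0.12 in control ileum and 8.32 ± 0.29 in control jejunum. Its ileal arrays all lay below those of control jejunum, with a log2 difference of -0.77 (limma adjusted p = 0.0804) that was past the threshold without mutant jejunum 2 (0.0355) or 3 (0.0186) and in 4 other settings. The 2 dimmer probe sets of Lamb1 differed by -0.15 and -0.09 in ileum. Lamc1, the gamma chain shared by most laminins, gave 6.89 ± 0.18 in mutant jejunum, 6.71 ± 0.19 in control ileum and 6.70 ± 0.15 in control jejunum. Lamb2, the beta chain of muscle and vessel laminins, differed by -0.09 in mutant jejunum and by 0.22 in control ileum.

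Of the mesenchymal and vascular alpha chains, Lama4, which lies under endothelium and around muscle, gave 7.05, 6.95 and 7.41 on mutant jejunum arrays, 6.59, 6.84 and 7.15 on control ileum arrays and 6.87, 6.80 and 6.70 on control jejunum arrays. All mutant arrays lay above those of control jejunum, but the difference of 0.35 was not called (limma adjusted p = 0.351). Lama2, the alpha chain around muscle cells, gave 5.63 ± 0.70 in mutant jejunum, 5.34 ± 0.30 in control ileum and 5.36 ± 0.39 in control jejunum, with its highest value, 6.34, on mutant jejunum 3. Lamc3, a gamma chain with restricted expression, lay near background in every group (4.82, 4.99 and 5.16 in mutant jejunum, control ileum and control jejunum).

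**Figure D2:**
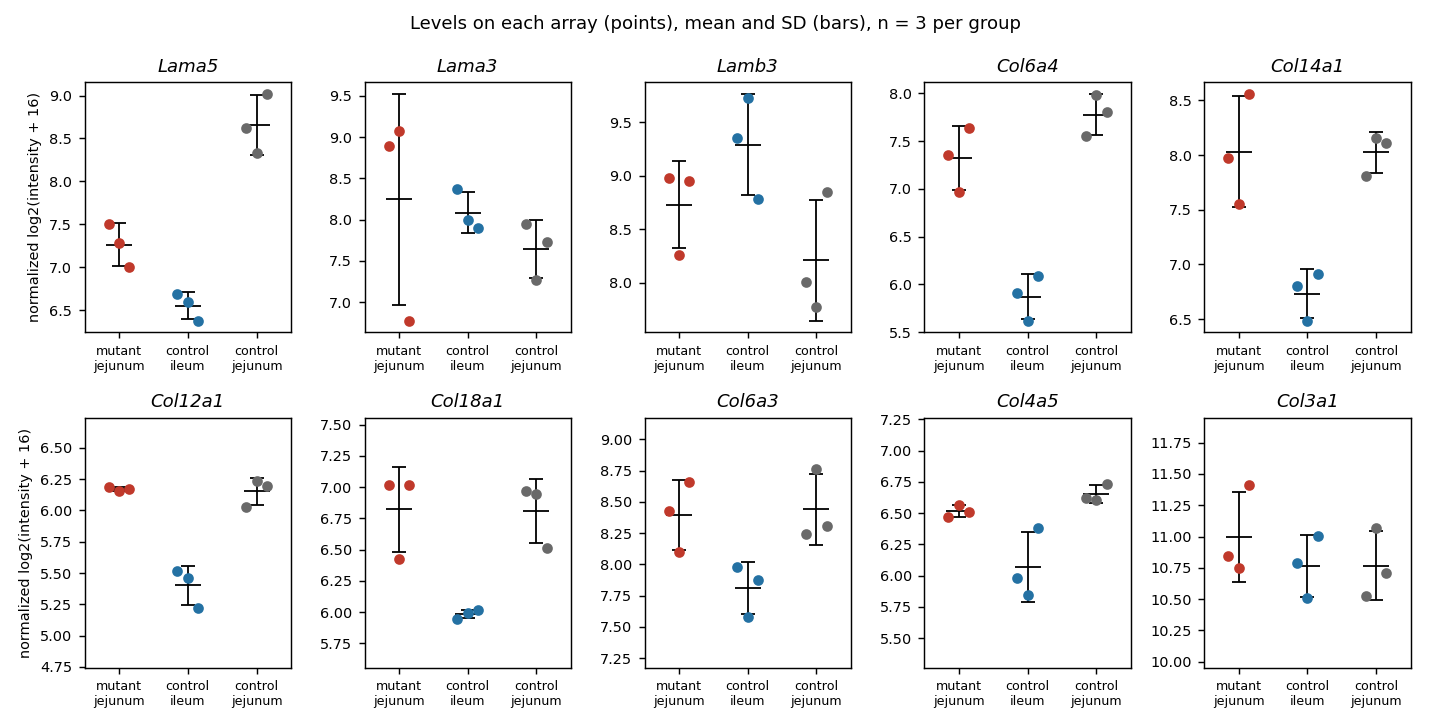
Normalized log2(intensity + 16) on each array (points) with the group mean and SD (bars, n = 3) for 10 genes in mutant jejunum, control ileum and control jejunum, each panel with its own axis, and Col18a1 by its dimmer probe set. Lama5 separates all 3 groups, and Lama3 is split between mutant arrays. All 3 ileum arrays lie below the 6 jejunal arrays for Lama5, Col6a4, Col14a1, Col12a1, Col6a3, Col4a5 and Col18a1.

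Type IV collagen, the network of the basement membrane, gave 1 call among its 4 tested genes by their brightest probe sets, that of Col4a5 in control ileum. Col4a1, a chain of its most widespread network, gave 8.97 ± 0.40 in mutant jejunum, 8.55 ± 0.18 in control ileum and 8.98 ± 0.46 in control jejunum. Col4a2, its partner chain and head-to-head neighbour, gave 8.20 ± 0.27, 7.99 ± 0.15 and 8.16 ± 0.34 in the same groups. Neither was called in any comparison, and the 95% intervals for mutant against control jejunum ran from -0.54 to 0.53 for Col4a1 and from -0.38 to 0.47 for Col4a2. In control ileum against control jejunum, Col4a1 differed by -0.44 (95% interval -0.97 to 0.10) and Col4a2 by -0.17 (-0.60 to 0.25). On both genes control jejunum 2 was the highest array of its group, at 9.52 and 8.54.

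Col4a5 and Col4a6, neighbours on the X chromosome, encode chains that join in a second type IV network. Col4a5 gave 6.47, 6.56 and 6.51 on mutant jejunum arrays, 5.99, 5.84 and 6.38 on control ileum arrays and 6.62, 6.61 and 6.74 on control jejunum arrays. It fell in control ileum by 0.58 on the log2 scale (limma adjusted p = 0.0284), with all ileum arrays below the others. The call was kept in 14 of 20 alternatives and lost with no filter (0.0533) and without control jejunum 1 (0.0564), 2 (0.0649) or 3 (0.0943), or control ileum 1 (0.0812) or 2 (0.104). The mutant differed from control jejunum by -0.14, not called. The dimmer of the Col4a6 probe sets gave 4.24, 4.23 and 4.14 on mutant jejunum arrays, 5.04, 4.35 and 4.95 on control ileum arrays, and 5.29, 5.07 and 5.01 on control jejunum arrays. It was called lower in mutant jejunum (log2 difference -0.92, limma adjusted p = 0.0399), yet the mutant values lie at the level of intensities near 0, where the size of a difference depends on the pseudocount. The call was lost in each of 6 fits without 1 jejunal array, with adjusted p between 0.0808 and 0.118. The brighter Col4a6 probe set differed by 0.12 in the mutant and was not called (limma adjusted p = 0.842).

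Fibrillar collagens, which form the load-bearing fibrils of the gut wall, gave 0 calls among 16 probe sets of 9 genes in any of the 3 comparisons by limma, where 3.56% (mutant against control jejunum), 16.2% (ileum against control jejunum) and 2.65% (mutant jejunum against ileum) of all probe sets were called. So few probe sets with no call do not set the class apart. At an unadjusted p under 0.05, 0, 2 and 2 of the 16 probe sets would pass in these comparisons. Over the 9 genes the differences ran from -0.36 to 0.23 in mutant against control jejunum, with 95% intervals reaching from -0.94 to 0.67, and over all 16 probe sets the intervals reached from -1.05 to 0.98. In control ileum against control jejunum they ran from -0.43 to 0.51, with intervals from -0.88 to 0.93. The medians were 0.01 and -0.06.

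Col3a1, the chain of type III fibrils, gave 10.84, 10.74 and 11.41 on mutant jejunum arrays, 10.79, 10.51 and 11.00 on control ileum arrays and 10.52, 11.07 and 10.71 on control jejunum arrays, and the groups overlapped. By their brightest probe sets the groups overlapped for the chains of type I collagen too. Col1a1 gave 7.30 ± 0.34 in mutant jejunum, 7.15 ± 0.16 in control ileum and 7.35 ± 0.36 in control jejunum, and Col1a2 gave 8.75 ± 0.55, 8.63 ± 0.15 and 8.69 ± 0.38. On the dimmer Col1a1 probe set all 3 ileum arrays (5.74 to 5.85) lay below the 6 jejunal arrays (6.09 to 6.57), with differences that were not called, -0.46 in ileum against control jejunum (limma adjusted p = 0.0750) and 0.59 in mutant jejunum against ileum (limma adjusted p = 0.0851). With no scaling between arrays, Col3a1 was called lower in ileum (limma adjusted p = 0.0268).

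Col5a2, a chain of the type V collagen that starts fibrils and the chromosomal neighbour of Col3a1, gave 7.47, 6.94 and 7.65 on mutant jejunum arrays, 7.66, 7.59 and 7.70 on control ileum arrays and 7.15, 7.35 and 6.90 on control jejunum arrays. The ileum arrays lay above those of control jejunum by 0.51 on average, which was not called (limma adjusted p = 0.0896) and was past the threshold without mutant jejunum 2 (0.0485) or in a fit of the 2 groups alone (0.0426). Its partner chain Col5a1 differed by -0.41 in ileum (limma adjusted p = 0.162). The cartilage type Col11a2 lay near background, with a difference of -0.36 in mutant jejunum that was not called (limma adjusted p = 0.546).

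The other collagens held 6 of the 8 probe sets called lower in ileum, and 26 of the 63 tested. These 6 are 23.1% of the class, against 7.86% called lower among all probe sets. Col6a4, which in mouse encodes a further chain of the type VI filaments beside Col6a1, Col6a2 and Col6a3, gave 7.36, 6.97 and 7.64 on mutant jejunum arrays, 5.91, 5.62 and 6.08 on control ileum arrays and 7.55, 7.98 and 7.80 on control jejunum arrays. The ileum arrays lay below all 6 jejunal arrays. Col6a4 fell to 5.87 ± 0.24 in control ileum, against 7.78 ± 0.22 in control jejunum (log2 difference -1.91 ± 0.20 SE, limma adjusted p = 0.000121, 3.76-fold). Mutant jejunum, at 7.32 ± 0.33, was higher than ileum by 1.45 (limma adjusted p = 0.00468) and differed from control jejunum by -0.46, with a 95% interval of -0.89 to -0.019, not called (limma adjusted p = 0.276, unadjusted 0.0421). Both calls held in all 20 alternatives.

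The 3 common type VI chains assemble with each other. In ileum Col6a1 differed by -0.30 (limma adjusted p = 0.227), Col6a2 by -0.39 (limma adjusted p = 0.148) and Col6a3 by -0.63 (limma adjusted p = 0.0440), and only Col6a3 was called. It gave 8.43, 8.10 and 8.66 on mutant jejunum arrays, 7.98, 7.58 and 7.87 on control ileum arrays, and 8.24, 8.77 and 8.31 on control jejunum arrays. That call was kept in 10 of 20 alternatives and was lost without control jejunum 2 (0.161) or 3 (0.0766), control ileum 1 (0.0556), 2 (0.147) or 3 (0.082), or mutant jejunum 1 (0.0582). In mutant jejunum the same 3 chains differed by -0.11, -0.15 and -0.04, and none was called.

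Col12a1 and Col14a1 encode the FACIT collagens that coat the surface of type I fibrils. Col14a1 gave 7.97, 7.55 and 8.56 on mutant jejunum arrays, 6.80, 6.48 and 6.91 on control ileum arrays and 7.81, 8.15 and 8.12 on control jejunum arrays. Ileum lay below both jejunal groups, which overlapped with each other. Col14a1 fell to 6.73 ± 0.22 in control ileum, against 8.03 ± 0.19 in control jejunum (log2 difference -1.29, limma adjusted p = 0.00373, 2.45-fold), and the mutant stood 1.30 above ileum (limma adjusted p = 0.0176) and 0.00 from control jejunum. The first call held in all 20 alternatives, and the second was lost without mutant jejunum 1 (0.0636) or control ileum 2 (0.0816) and in a fit of the 2 groups alone (0.0529). A second Col14a1 probe set also fell in ileum (log2 difference -0.79, limma adjusted p = 0.0247), a call lost without control jejunum 2 (0.0748) or 3 (0.0816) or control ileum 1 (0.0712) or 2 (0.084).

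Col12a1 gave 6.19, 6.16 and 6.17 on mutant jejunum arrays, 5.52, 5.46 and 5.22 on control ileum arrays and 6.03, 6.23 and 6.20 on control jejunum arrays. It fell in control ileum by 0.75 on the log2 scale (limma adjusted p = 0.00517; called in all 20 alternatives), and the mutant was higher than ileum by 0.77 (limma adjusted p = 0.0206) and differed from control jejunum by 0.02. The mutant against ileum call was lost without mutant jejunum 1 (0.0778) or 2 (0.0579), without control ileum 2 (0.07) or 3 (0.0581), and in a fit of the 2 groups alone (0.0543). The other 4 tested FACIT collagens, Col9a1, Col16a1, Col20a1 and Col22a1, were not called.

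Col18a1 and Col15a1 are the multiplexins, which sit at basement membranes, and the end of the Col18a1 chain is the source of endostatin. The dimmer Col18a1 probe set gave 7.02, 6.43 and 7.02 on mutant jejunum arrays, 5.95, 5.99 and 6.02 on control ileum arrays and 6.97, 6.95 and 6.51 on control jejunum arrays. It fell in ileum (log2 difference -0.82, limma adjusted p = 0.0143), a call lost only without control jejunum 2 (0.0576) among 20 alternatives. Against ileum the mutant was higher by 0.84 (limma adjusted p = 0.0452), which was kept in 6 of 20 alternatives and lost without control jejunum 1 (0.0605) or 2 (0.0634), mutant jejunum 1 (0.155) or 3 (0.0833), or control ileum 1 (0.117), 2 (0.135) or 3 (0.0936). The brighter Col18a1 probe set gave a difference of -0.47 in ileum, not called (limma adjusted p = 0.282), and the probe sets of this gene thus disagreed on the call. Col15a1 differed by -0.49 in ileum (limma adjusted p = 0.206).

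The remaining collagens gave no call. Col7a1, the anchoring fibril collagen, gave 5.47 ± 0.17 in mutant jejunum, 5.67 ± 0.22 in control ileum and 5.34 ± 0.11 in control jejunum. Col25a1, a transmembrane collagen of neurons, gave 4.99, 4.54 and 4.54 on mutant jejunum arrays, 4.45, 4.78 and 5.52 on control ileum arrays and 5.34, 5.12 and 5.79 on control jejunum arrays. Its difference of -0.73 in the mutant, at levels near background, was not called (limma adjusted p = 0.220). Col23a1, another transmembrane collagen, had all ileum arrays (5.26 to 5.54) below the 6 jejunal arrays (5.59 to 6.44), with differences of -0.44 in ileum against control jejunum (limma adjusted p = 0.166) and 0.65 in mutant jejunum against ileum (limma adjusted p = 0.131), neither called. Col13a1, also transmembrane, and the network-forming Col8a1 and Col8a2 had no call in any comparison.

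**Figure D3:**
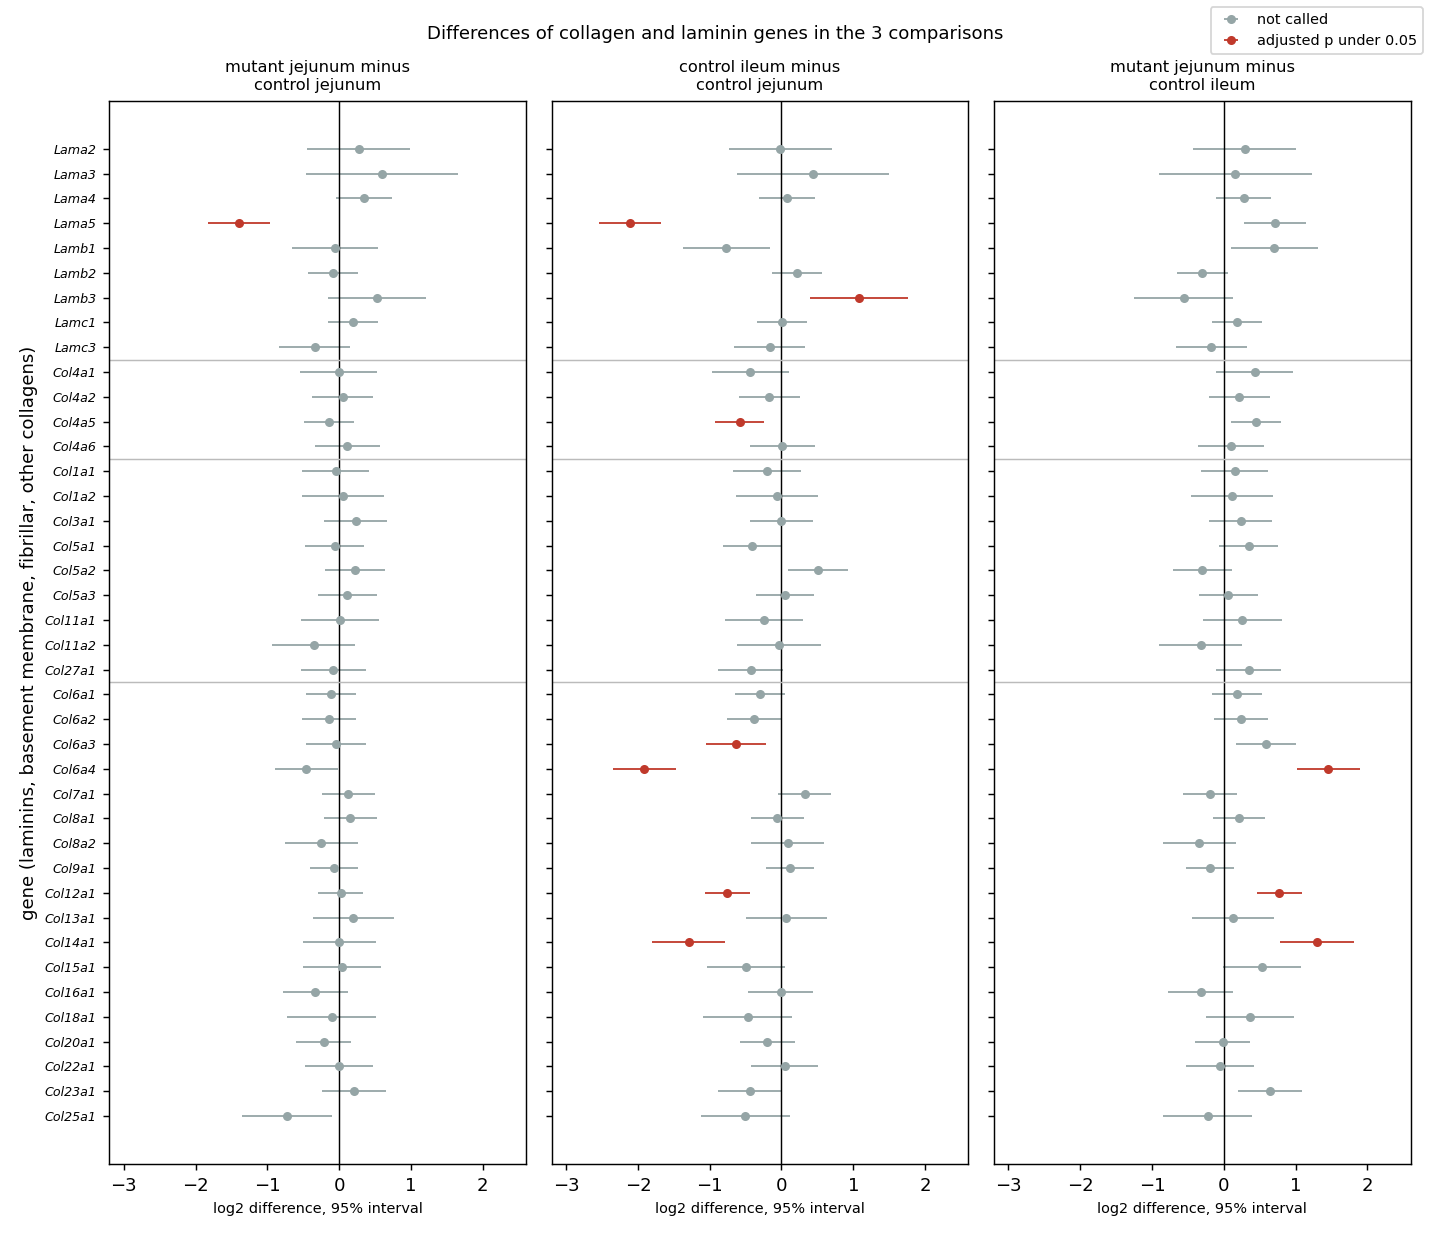
Log2 differences of the 40 genes with 95% intervals in mutant jejunum minus control jejunum, control ileum minus control jejunum and mutant jejunum minus control ileum, red where the adjusted p is under 0.05. The first panel has 1 red point, Lama5 at -1.39, the second has 7 and the third has 3.

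Several probe sets measured 19 of the tested genes, 42 in all. They shared the call status in mutant against control jejunum except for Lama5 and Col4a6, and in control ileum against control jejunum except for Lama5, Col4a5, Col12a1 and Col18a1. The Col12a1 pair had nearly equal differences of -0.75 and -0.71, while the probe sets of Lama5 differed by -2.11 and -0.45.

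**Figure D4:**
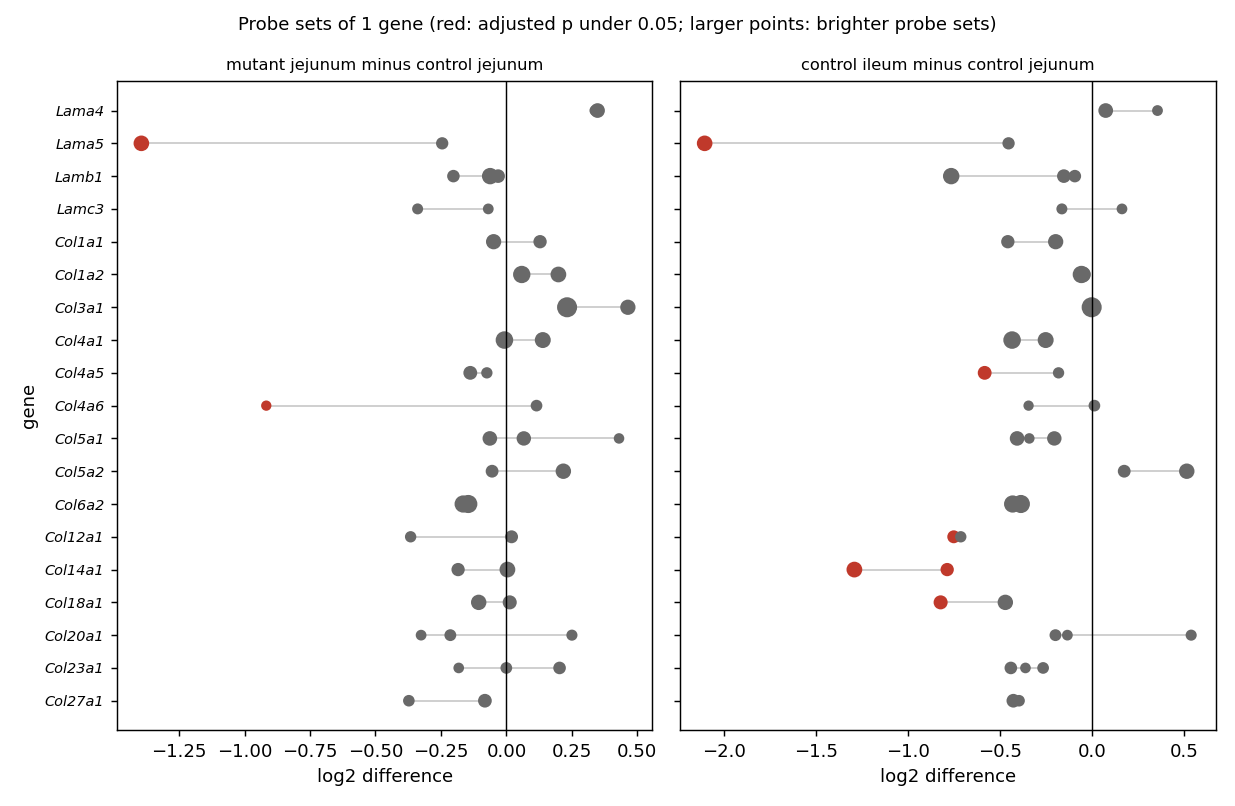
Log2 difference of each tested probe set of the 19 genes with more than 1, in mutant jejunum minus control jejunum and control ileum minus control jejunum (larger points for brighter probe sets, red for adjusted p under 0.05, lines joining probe sets of a gene). Lama5 and Col4a6 have the widest spread in the first panel, and Lama5 in the second.

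Genes that work with these chains were read from 5 lists. Their counts of calls stand beside the shares over all probe sets tested. These were 1.74% higher and 1.82% lower in mutant jejunum, and 8.36% higher and 7.86% lower in control ileum, each against control jejunum. Of 11 tested basement membrane partners, 1 fell and 0 rose in mutant jejunum, and 3 fell and 0 rose in control ileum (3 and 4 genes at an unadjusted p under 0.05). Fras1, an epithelial protein of the basement membrane, fell to 5.16 ± 0.47 in mutant jejunum and 4.50 ± 0.14 in control ileum, against 6.82 ± 0.32 in control jejunum (log2 differences -1.66 and -2.32, limma adjusted p = 0.00383 and 0.000130), and was called in all 20 alternatives. Its ileum level is close to that of no signal, so the size depends on the pseudocount, with log2 differences of -2.31 and -3.72 at a pseudocount of 1 and -0.93 and -1.19 at 64. Npnt, an integrin ligand, gave 7.64 ± 0.43 in mutant jejunum, 6.69 ± 0.12 in control ileum and 8.01 ± 0.18 in control jejunum, and fell in ileum (log2 difference -1.32, limma adjusted p = 0.00146) in all 20 alternatives. The mutant stood 0.95 above ileum (limma adjusted p = 0.0343), a call kept in 11 of 20 alternatives. It was lost without control jejunum 3 (0.0588), mutant jejunum 1 (0.0916) or control ileum 1 (0.0793), 2 (0.127) or 3 (0.0669). It was also lost with trimmed mean scaling (0.0524), no filter (0.0534), no intensity trend (0.0507) and a fit of the 2 groups alone (0.08). Agrn, a heparan sulfate proteoglycan, fell in ileum (log2 difference -0.62, limma adjusted p = 0.0359), a call kept in 11 of 20 alternatives. It was lost without control jejunum 1 (0.0852), 2 (0.111) or 3 (0.0677), mutant jejunum 2 (0.0514) or control ileum 1 (0.06) or 3 (0.0819). It was also lost with no filter (0.0507), no intensity trend (0.0506) and a fit of the 2 groups alone (0.0539). The linker Nid1 and the proteoglycan Hspg2 were not called.

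Of 16 tested receptors of collagen and laminin, 1 rose and 1 fell in mutant jejunum, and 4 rose and 1 fell in control ileum (5 and 8 genes at an unadjusted p under 0.05). Sdc1, a syndecan of epithelial cells, rose to 10.81 ± 0.22 in mutant jejunum and 10.68 ± 0.08 in control ileum, against 9.82 ± 0.07 in control jejunum (log2 differences 0.99 and 0.86, limma adjusted p = 0.00133 and 0.00102). The mutant call held in all 20 alternatives, and the ileal one was lost with no scaling (0.131). Itga3, the alpha subunit of a laminin-binding integrin, fell to 8.95 ± 0.05 in mutant jejunum and 8.80 ± 0.21 in control ileum, against 9.47 ± 0.02 in control jejunum (log2 differences -0.52 and -0.68, limma adjusted p = 0.0466 and 0.00457). The ileal call held in all 20 alternatives, and the mutant one in 8 of 20, being lost without any 1 of the jejunal arrays (0.0799 to 0.149) or control ileum 3 (0.0613). The collagen receptor subunit Itga2 rose in ileum by 1.25 (limma adjusted p = 0.00713), in all 20 alternatives. Itga6 and Itgb1, other laminin receptor subunits, were called higher in ileum by 0.52 and 0.39 (limma adjusted p = 0.0239 and 0.0430), and with no scaling between arrays their direction turned, to -0.051 and -0.16. The Itga6 call was kept in 13 of 20 alternatives and the Itgb1 call in 8. That of Itga6 was lost without control jejunum 1 (0.0506), 2 (0.0887) or 3 (0.0615) or control ileum 1 (0.0769) or 2 (0.0766). That of Itgb1 was lost without control jejunum 1 (0.0591), 2 (0.108) or 3 (0.141), mutant jejunum 1 (0.0572) or 2 (0.0584) or control ileum 2 (0.126) or 3 (0.124).

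Of 22 tested genes of collagen synthesis and crosslinking, 0 rose and 2 fell in mutant jejunum (4 at an unadjusted p under 0.05), and 3 rose and 2 fell in control ileum. P4hb, the disulfide isomerase that is also a subunit of prolyl hydroxylase, gave 12.53 ± 0.16 in mutant jejunum, 12.31 ± 0.08 in control ileum and 13.02 ± 0.04 in control jejunum (log2 differences -0.49 and -0.72, limma adjusted p = 0.0171 and 0.000603). The ileal call held in all 20 alternatives, and the mutant one in 14 of 20, being lost with no scaling (0.263) or median centring (0.156) and without control jejunum 2 (0.0761) or 3 (0.0793) or mutant jejunum 2 (0.0784). Bmp1, a procollagen protease, fell in ileum (log2 difference -0.88, limma adjusted p = 0.0106) in all 20 alternatives. Mia3, which loads collagen into secretory carriers, was called lower in the mutant (log2 difference -0.48, limma adjusted p = 0.0440) in 6 of 20 alternatives, and not without control jejunum 2 (0.18) or 3 (0.143), any 1 mutant array (0.0712 to 0.14) or any 1 ileum array (0.0557 to 0.0738). In ileum the collagen chaperone Serpinh1 was called higher by 0.65, the lysyl hydroxylase partner P3h4 by 0.65 and the proline isomerase Ppib by 0.39 (limma adjusted p = 0.0353, 0.0221 and 0.0421). With no scaling these became 0.16, 0.28 and -0.14, none called. The Serpinh1 call was kept in 11 of 20 alternatives and that of Ppib in 8. The Serpinh1 call was lost without any 1 of the control arrays (0.0536 to 0.11), that of Ppib without any 1 of these (0.0656 to 0.143) or mutant jejunum 2 (0.0566), and that of P3h4 without control jejunum 2 (0.0844) or control ileum 2 (0.0839). The crosslinking enzyme Lox differed by 0.05 in both comparisons.

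Of 11 tested genes of matrix breakdown, 0 were called in mutant against control jejunum by limma (1 at an unadjusted p under 0.05), and 1 rose and 3 fell in control ileum. Mmp7, the Paneth cell matrilysin, gave 10.11 ± 0.57 in mutant jejunum, 11.43 ± 0.25 in control ileum and 9.52 ± 0.32 in control jejunum, and rose by 1.91 in ileum (limma adjusted p = 0.000677). The proteases Mmp10, Mmp13 and Mmp14 fell in ileum (log2 differences -1.05, -1.30 and -0.81). These 4 ileal calls held in all 20 alternatives. The mutant was higher than ileum for Mmp10 (1.19) and Mmp14 (0.66) and lower for Mmp7 (-1.31), with limma adjusted p of 0.0227, 0.0431 and 0.0257. These calls were less stable, being kept in 17, 7 and 14 of 20 alternatives for Mmp10, Mmp14 and Mmp7. That of Mmp10 was lost without control ileum 1 (0.0585) or 2 (0.0949), that of Mmp7 without mutant jejunum 1 (0.0824) or 2 (0.0771) or any 1 ileum array (0.0581 to 0.0774), and that of Mmp14 without any 1 array but control ileum 3 (0.0556 to 0.149).

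Of 24 tested genes of other stromal matrix, 0 rose and 1 fell in mutant jejunum (4 at an unadjusted p under 0.05), and 5 rose and 3 fell in control ileum. Fbln1, a fibulin of basement membrane and elastic fibres, gave 8.01 ± 0.42 in mutant jejunum, 8.15 ± 0.44 in control ileum and 10.40 ± 0.09 in control jejunum (log2 differences -2.39 and -2.25, limma adjusted p = 0.000312 and 0.000129). The small proteoglycans Ogn and Lum rose in ileum by 1.52 and 1.02 and Postn, a matricellular protein, by 1.36 (limma adjusted p = 0.000132, 0.00459 and 0.00112). Bgn, a small proteoglycan, fell in ileum (log2 difference -1.05, limma adjusted p = 0.00124), as did the elastic fibre protein Fbln5 (log2 difference -1.01, limma adjusted p = 0.00614). These calls held in all 20 alternatives except that of Lum, lost with no scaling (0.0516). The mutant was lower than ileum for Ogn (-1.31) and Postn (-1.62), in all 20 alternatives, and higher for Bgn (0.95, limma adjusted p = 0.0136), a call lost without mutant jejunum 1 (0.0568) or control ileum 2 (0.0623). Fmod and Thbs2 were called higher in ileum by 0.84 and 0.61 (limma adjusted p = 0.0173 and 0.0454). Fmod was tested in only 14 of 20 alternatives, with differences from 0.28 to 2.75, and its call was lost without control jejunum 2 (0.0551). The Thbs2 call was kept in 7 of the 19 alternatives that tested it. It was lost without any 1 control array (0.0554 to 0.13) or mutant jejunum 2 (0.0595). Other losses included no scaling (0.312), trimmed mean scaling (0.0757) and no filter (0.0732). Fibronectin (Fn1), elastin (Eln) and decorin (Dcn) were not called in any comparison.

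Markers of the cells that make these chains differed between the groups as well. Over all probe sets tested, 1.74% were called higher and 1.82% lower in mutant jejunum, and 8.36% and 7.86% in control ileum, each against control jejunum. Of 11 smooth muscle markers, 9 rose in control ileum, and 0 were called in mutant against control jejunum by limma (1 at an unadjusted p under 0.05). Their summed normalized intensity ran from 7404 to 11300 on mutant jejunum arrays, 17257 to 21496 on control ileum arrays and 9118 to 13384 on control jejunum arrays. Of 7 tested fibroblast markers 1, Prrx1, was called, and it fell by 1.79 in mutant jejunum and by 2.45 in control ileum (log2 differences of -2.35 and -3.66 at a pseudocount of 1, -1.07 and -1.34 at 64), while the median of the list was 0.09 in the mutant and -0.37 in ileum, with summed intensities of 625 to 1222, 465 to 652 and 713 to 775 in mutant jejunum, control ileum and control jejunum. Of 10 endothelial markers, Kdr and Flt1 fell in control ileum and 0 were called in the mutant by limma (1 at an unadjusted p under 0.05, Flt1, which was called with array weights, adjusted p = 0.0204, and without mutant jejunum 3, 0.0329), with sums of 438 to 886, 406 to 434 and 570 to 642. Of 10 epithelial markers, 3 rose in the mutant and 6 in ileum, with list medians of 0.27 and 0.37 and sums of 54190 to 59493, 60888 to 62949 and 49173 to 50649. Of 6 pericyte markers, 2 rose and 1 fell in ileum, with sums of 1664 to 2038, 2690 to 3801 and 1877 to 2755. Of 8 markers of enteric neurons and glia, 3 rose in ileum, with sums of 186 to 213, 275 to 417 and 208 to 241. Of 6 leukocyte markers, 2 fell in ileum, with sums of 2484 to 4565, 3061 to 4639 and 3102 to 3556, and the median of the list was -0.52. In the mutant 0 markers of these 3 lists were called by limma (0, 2 and 0 at an unadjusted p under 0.05). The fibroblast markers Meox2, Twist1 and Twist2 were too dim to test. Over 3 adipocyte markers the mean deviation from the 9-array mean was 1.79 on mutant jejunum 2, 1.69 on control ileum 3 and -0.92 to -0.06 on the other arrays. Of these, Cidec was called lower in ileum than in both jejunal groups. Over 5 mesothelial markers it was -0.76 on mutant jejunum 3 and -0.19 to 0.38 on the other arrays. These 5 and the 2 tested pancreatic acinar markers were not called in any comparison. Apart from fibroblast and endothelial markers, calls of marker genes were not followed through the alternative settings. With no scaling between arrays, the median of all probe sets moved by -0.40 in ileum against control jejunum. The part of these cell types in the collagen and laminin differences was not tested.

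**Figure D5:**
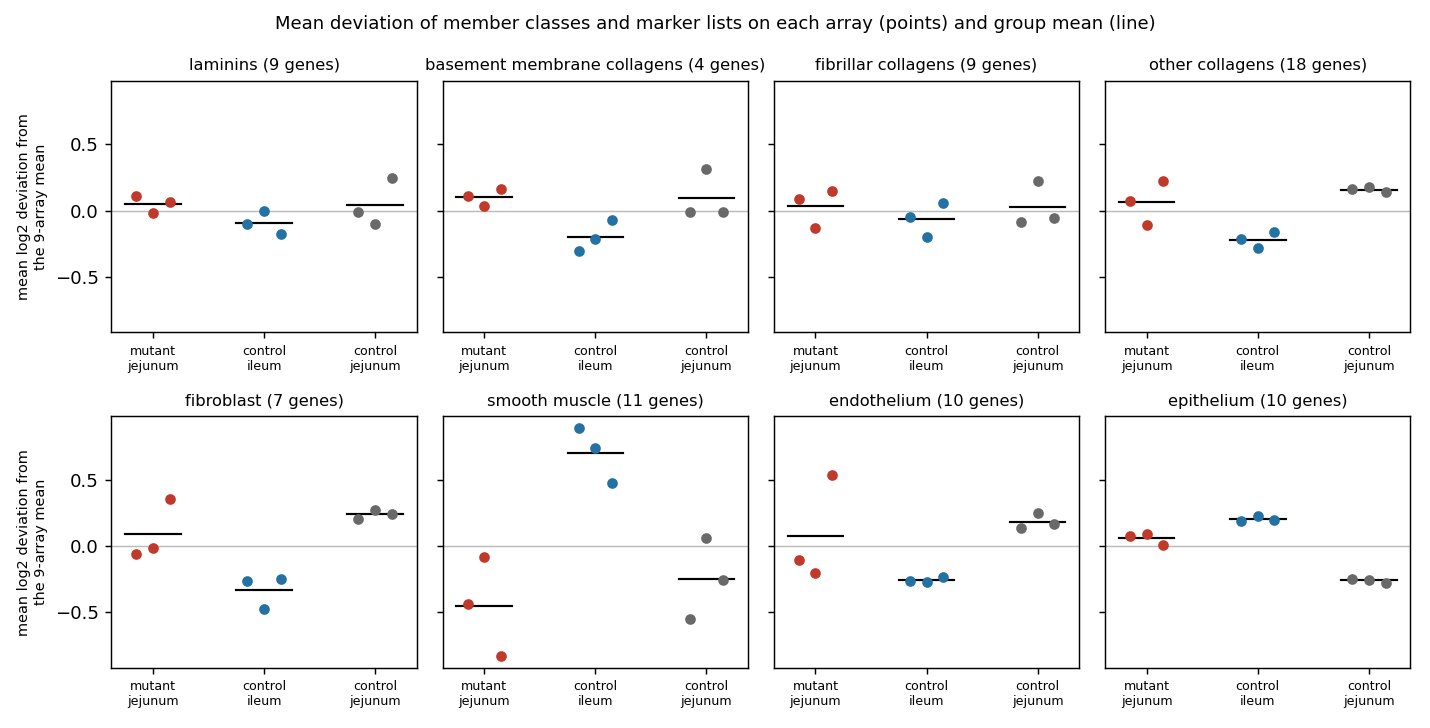
Mean log2 deviation from the 9-array mean, over the tested genes of each class of collagens and laminins (upper row) and of 4 marker lists (lower row), on each array (points) with the group mean (line). Smooth muscle markers lie between 0.48 and 0.89 on ileum arrays and other collagens between -0.28 and -0.16, while mutant jejunum 3 is the highest array for fibroblast (0.35) and endothelial (0.54) markers.

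By class, the other collagens averaged 0.06 ± 0.17 in mutant jejunum, -0.22 ± 0.06 in control ileum and 0.16 ± 0.02 in control jejunum as mean log2 deviation from the 9-array mean. Laminins averaged 0.05 ± 0.06, -0.09 ± 0.09 and 0.04 ± 0.18, and fibrillar collagens 0.04 ± 0.15, -0.06 ± 0.13 and 0.03 ± 0.17 in the same groups. Basement membrane collagens averaged 0.10 ± 0.06, -0.20 ± 0.12 and 0.10 ± 0.19. The ileum arrays lay below all jejunal arrays for the other collagens and the basement membrane collagens, and overlapped with them for laminins and fibrillar collagens. Mutant jejunum 3 had the highest mean of the mutant arrays for other collagens (0.22), basement membrane collagens (0.16) and fibrillar collagens (0.15).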

How the data were processed

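Total RNA was labelled with biotin after a column purification and a one-cycle amplification, per the labels' protocols, and hybridized to Affymetrix whole-genome mouse expression arrays. The authors deposited 1 linear intensity per probe set and array, made with GCOS per the submitters' processing notes. Its version and settings, the scan dates and any array batch were not given in the sources used here. Groups come from the sample titles and the design text. The members and gene lists were chosen with earlier results of these data known.

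After 64 array controls were left out, log2(intensity + 16) was quantile-normalized, which cannot show a shift of all transcripts together. Probe sets above the 40th percentile (4.95) on at least 3 of 9 arrays were tested, 29307 in all. Gene names come from the annotation given for the array. One limma 3.58.1 model (R 4.3.3) over 3 groups with an intensity trend gave two-sided, Benjamini-Hochberg adjusted p-values. The fit was also run on simulated data with independent noise and no dim or outlying array. That run cannot show how the unequal arrays affect these results. The text names every called member, the 5 largest differences each way per comparison and the brightest member of each class. It also names chromosomal neighbours, chains of 1 trimer and the called genes of 5 matrix lists, and describes 10 marker lists. Alternatives were 11 other settings and 9 fits without 1 array. The number of arrays limits the precision.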

Additional observations from a re-analysis of the deposited data

How the results depend on the processing

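With no scaling between arrays the median of all probe sets moved by -0.40 in control ileum against control jejunum, and 5.82% of its calls were higher, against 51.5% in the reported analysis. With arrays centred on their medians 36.7% of those calls were higher, and 62% of the calls in mutant against control jejunum, against 48.9%. Member probe sets called lower in ileum against control jejunum were then 29 with no scaling, against 8, and those called higher were 0 with no scaling, with median centring, with no filter and with the replicate block, and 2 in a fit of the 2 groups alone, against 1. Member probe sets higher in mutant jejunum than in ileum were 31 with no scaling and 1 in a fit of the 2 groups alone, against 4. Those lower in mutant than in control jejunum were 1 with a filter at the 60th percentile and with the replicate block, against 2. Leaving out 1 array gave 0 to 1 higher and 1 to 2 lower in mutant against control jejunum (without mutant jejunum 3, the 1 higher was Lama3), 0 to 2 higher and 4 to 9 lower in ileum against control jejunum, and 1 to 4 higher and 0 lower in mutant jejunum against ileum. For the genes and probe sets examined one by one, 2831 values kept their side of the threshold, 187 lost a call, 48 gained one and 3 called values turned their sign, all in ileum against control jejunum with no scaling, Ppib (-0.14), Itga6 (-0.051) and Itgb1 (-0.16). Values that were not called also changed sign in places, collagens and laminins among them, such as Lama3 (-0.066) and Lamb2 (-0.15) in that comparison with no scaling. The cause of these changes was not tested. Fits without 1 array have fewer arrays and normalize the rest anew, and some settings change the number of probe sets tested.

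The shared replicate numbers were not taken as a pairing, since the groups came from different mice. Same-numbered arrays had residual correlations between -0.07 and 0.17, and 5 of 9 arrays were best matched by their own number. With 3 arrays in each group these values cannot decide whether arrays were paired. With the replicate block Lamb3 in ileum had an adjusted p of 0.0539, Col6a3 in ileum 0.0648, the dimmer Col4a6 probe set in the mutant 0.052 and that of Col18a1 in mutant against ileum 0.0685. Other calls lost with it were Ppib (0.0572), Itgb1 (0.0604) and Thbs2 (0.053) in ileum, Mia3 (0.0661) and Itga3 (0.0712) in the mutant and Mmp14 (0.0617) in mutant against ileum, and Mmp13 in mutant against ileum was gained (0.0227).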
